A study of Mus musculus with 55 samples.

Results

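Liver RNA of 4 Collaborative Cross (CC) mouse lines was compared across all expressed genes. The CC lines are recombinant inbred mice, each of which carries a different mosaic of the same founder genomes. IL-670 (3 mice) and IL-785 (3 mice) were set against IL-611 (3 mice) and IL-3438 (2 mice), which the study set apart by their expression of enzymes that handle the anticancer drug irinotecan. These 11 mice are part of a panel of 55 untreated male mice of 29 lines. Members were the genes whose highest FPKM (fragments per kilobase of transcript, scaled to the depth of the library) over the 55 mice was at least 2, which held for 11284 of 37620 genes. The 10 genes of Ces2h, Ces3a, Gusb and the Ugt1a family were left out, so that 11274 genes remained. Of the genes past this limit 86 had no fragment in the 11 mice, and 11198 genes, 11188 of them members, were tested. Within the 11 mice 9648 members reached the limit, 531 of them through IL-670 or IL-785 mice alone and 344 through IL-611 or IL-3438 mice alone.

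The 4 lines differed in more than genotype. IL-670 mice were 9.1 weeks old and weighed 19.6 to 21.8 g, and IL-785 mice were 8.1 to 9 weeks old and weighed 12.8 to 15.8 g. IL-611 mice were 10.1 weeks old with weights of 26.9 to 29.5 g, and IL-3438 mice were 9.7 weeks old with weights of 25 and 27 g. Every IL-670 and IL-785 mouse was thus younger and lighter than every IL-611 and IL-3438 mouse, and age and weight cannot be told apart from the line pairs. No treatment was given, and food and water were freely available. Each inbred line is 1 genotype, so that the comparison rests on 2 lines against 2 lines, and p-values measure the spread between mice of a line. Depth ranged from 26.4 M to 32.7 M assigned fragments a mouse. The transcript of albumin, the main secreted protein of hepatocytes, stood between 28147.8 and 37655.3 FPKM (Alb) in all 11 livers.

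Carboxylesterases cleave irinotecan, which is given as a prodrug, and so release SN-38, which blocks DNA topoisomerase I. SN-38 is inactivated by glucuronidation, the parent drug is oxidised by Cyp3a enzymes, and both leave hepatocytes through ATP-driven export pumps. The same cells respond to signals that act on large gene programs: type I interferon acts through its receptor on interferon-stimulated genes, fatty acids act through the nuclear receptor PPARalpha on genes of fat oxidation, and the circadian clock sets a daily rhythm in much of liver metabolism.

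Between the line pairs 2174 members differed, 1007 higher and 1167 lower in IL-670 and IL-785 (edgeR quasi-likelihood test, adjusted p under 0.05, here termed called). Over all genes tested this call covered 19.5% (9.03% higher and 10.4% lower), so that a called gene is common here. A difference of pair means can come from 1 line. Each line of a pair was therefore compared with each line of the other, and 219 members were called with the same sign in all 4 comparisons, 86 higher and 133 lower in IL-670 and IL-785, beside 1.98% of the genes tested (0.786% higher and 1.2% lower). Of these, 191 were protein coding, 128 differed at least 1 log2 unit and 207 had FPKM values that did not overlap between the pairs. The last 2 counts rest on the values that selected these genes and are not separate results. Between IL-670 and IL-785, 60 of the 219 were called, beside 23.2% of the genes tested. Between IL-611 and IL-3438, 25 were called, beside 8.66% of the genes tested, and 143 were called in neither comparison. FPKM values did not overlap in 6.31% of the genes tested (1.79% higher and 4.53% lower). The count of genes called in all 4 comparisons, 222 with the left-out genes, was 139 without IL-3438 replicate 1 and 145 without IL-670 replicate 2.

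The 2 lines of a pair were not alike. IL-670 and IL-785 differed from each other in 23.2% of the genes tested, more than IL-670 from IL-611 (18.9%), IL-670 from IL-3438 (12.5%), IL-785 from IL-611 (19.5%) or IL-785 from IL-3438 (19.5%). IL-611 and IL-3438 differed in 8.66%. IL-3438 had 2 mice and each other line 3, so that these shares rest on unequal numbers of mice and their order may depend on that. Between IL-670 and IL-785, 2599 genes were called with all mice. Without 1 IL-670 mouse the count was 1894 to 2126, and without 1 IL-785 mouse 2313 to 2951. Between IL-785 and IL-3438 it was 2179 with all mice, which lies between these ranges. Spearman correlations of gene levels between mice had a median of 0.985 within a line, 0.918 between IL-670 and IL-785 mice, 0.950 between IL-611 and IL-3438 mice and 0.930 across the pairs. These are descriptions over genes within libraries. The values ranged from 0.911 to 0.924 between IL-670 and IL-785 mice and from 0.916 to 0.942 across the pairs, with overlap. The median absolute log2 difference was 0.25 both between IL-670 and IL-785 and between IL-785 and IL-3438.

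**Figure D1:**
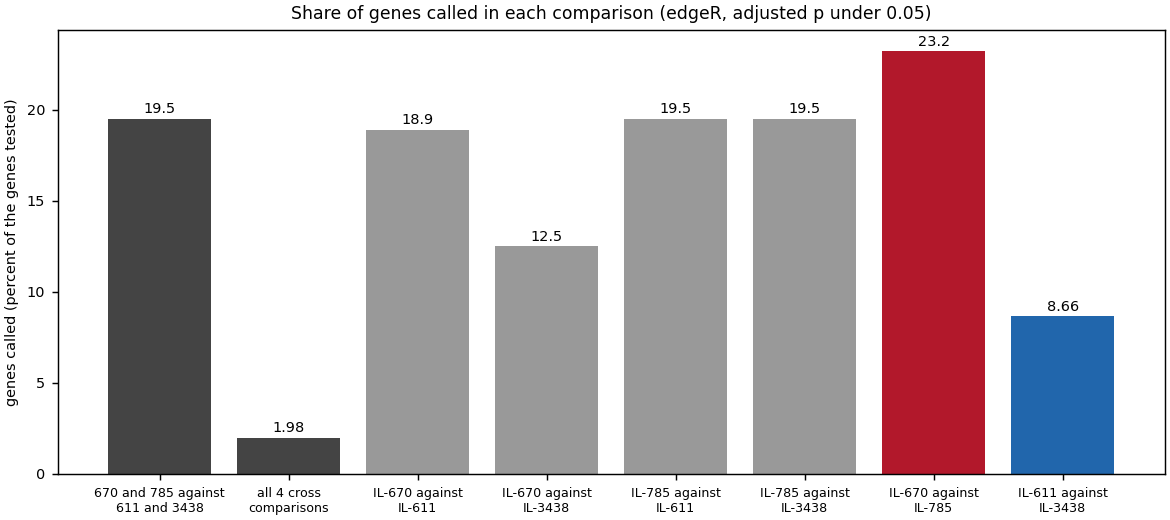
Share of the genes tested (percent, vertical axis) that were called in each comparison named on the horizontal axis, with the bars' values printed above them. The bar of IL-670 against IL-785 (23.2%) stands above those of the 4 comparisons across the pairs (12.5% to 19.5%), and calls in all 4 of those cover 1.98%. IL-3438 had 2 mice and each other line 3, so that the bars rest on unequal numbers of mice.

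The letters of the interferon-stimulated response element were searched in the promoters. The element was searched as GAAANNGAAA on both strands in the 250 bases before the start of each gene's most expressed isoform, and was found in 373 of 11172 promoters (3.34%), in 16 of the 32 interferon-stimulated genes tested (50%), in 14 of the 25 of them that were lower in IL-670 and IL-785 (56%), and in 6 of the 9 lower in all 4 comparisons (66.7%). These 6 windows, read from the mm9 genome on the strand of the gene, are shown because they are the ones with a match among these 9 genes. Capitals mark the match nearest the start of the isoform. Further matches are not marked, and in Isg15 and Oas1a another lies partly in the lower-case bases printed. The 250 bases held 2 matches in Ifit3, Ifit1, Usp18 and Oas1a, 3 in Isg15 and 4 in Rtp4.
Ifit3, chr19:34657882-34657921, plus strand: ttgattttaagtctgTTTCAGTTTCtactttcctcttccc
Ifit1, chr19:34715279-34715318, plus strand: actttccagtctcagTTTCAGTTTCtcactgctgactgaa
Isg15, chr4:155574969-155575008, minus strand: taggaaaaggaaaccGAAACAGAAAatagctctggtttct
Usp18, chr6:121195850-121195889, plus strand: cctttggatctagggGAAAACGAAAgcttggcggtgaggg
Oas1a, chr5:121357531-121357563, minus strand: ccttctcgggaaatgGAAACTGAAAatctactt
Rtp4, chr16:23609965-23610004, plus strand: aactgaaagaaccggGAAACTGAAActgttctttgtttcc
In Ifit3 and Ifit1 the marked match lies on the other strand and is printed as its reverse complement. Promoters of Irf7, Oasl1 and Dhx58 held no match in this window. Among all members, 12 of 133 promoters of genes lower in all 4 comparisons (9.02%) and 2 of 86 of genes higher in all 4 (2.33%) held a match. The 6 genes printed above are among these 12, so that this share is not a separate result. The mm9 sequence is that of C57BL/6J and need not be the allele of a CC line.

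Interferon-stimulated genes encode antiviral proteins and the factors that tune the response. Of 32 tested, 25 were lower and 2 higher in IL-670 and IL-785, beside 10.4% lower and 9.03% higher of all genes tested. In all 4 comparisons 9 of the 32 were lower, beside 1.2% of all genes tested. The median log2 difference was -1.36, against 0.01 over all genes tested. FPKM did not overlap in 17, all of them lower in IL-670 and IL-785, beside 4.53% of all genes tested. The summed FPKM of the list was 275.23, 186.32 and 224.89 in IL-670, 165.43, 171.68 and 198.02 in IL-785, 408.92, 399.92 and 529.94 in IL-611, and 283.89 and 362.42 in IL-3438. Each sum of IL-611 and IL-3438 was above each sum of IL-670 and IL-785, although the margin between the lowest IL-3438 and the highest IL-670 mouse was small.

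Ifit3 (ENSMUSG00000074896), whose product binds viral RNA complexes with its relatives, stood at 0.85, 0.56 and 1.29 FPKM in IL-670, 0.4, 0.65 and 0.84 in IL-785, 17.96, 11.9 and 20.11 in IL-611, and 5.47 and 7.81 in IL-3438. The log2 difference was -3.75 ± 0.24 (SE, adjusted p = 5.38e-06 by edgeR). The 6 low mice were all of IL-670 and IL-785, and IL-611 exceeded IL-3438 without overlap. Ifit1 (ENSMUSG00000034459), its neighbour on chromosome 19 that recognises RNA with a foreign cap, ranged from 0.52 to 1.24 FPKM in IL-670 and IL-785 and from 2.84 to 12.96 in IL-611 and IL-3438, a log2 difference of -2.75 ± 0.21 (adjusted p = 1.58e-05). Isg15 (ENSMUSG00000035692), a ubiquitin-like protein attached to other proteins, was at 6.41, 3.36 and 6.01 FPKM in IL-670, 3.17, 2.18 and 2.97 in IL-785, 30.65, 30.32 and 36.7 in IL-611, and 9.87 and 11.94 in IL-3438. Its log2 difference was -2.22 ± 0.18 (adjusted p = 1.85e-05). Usp18 (ENSMUSG00000030107), which removes Isg15 from proteins and dampens the interferon receptor, lay at 0.77 to 2.41 FPKM against 5.21 to 13.2, a log2 difference of -2.12 ± 0.23 (adjusted p = 0.000169). The groups of mice did not overlap in any of these 4 genes.

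Regulators of the response were mixed. Irf7 (ENSMUSG00000025498), the transcription factor that amplifies type I interferon production, stood at 5.79, 4.23 and 6.62 FPKM in IL-670, 3.91, 2.59 and 3.55 in IL-785, 24.69, 27.54 and 31.64 in IL-611, and 19.11 and 16.78 in IL-3438, with a log2 difference of -2.37 ± 0.19 (adjusted p = 1.84e-05). The difference in Irf9 (-0.60 ± 0.13, adjusted p = 0.00974), a transcription factor of the interferon response, was smaller and without overlap. Stat2, with which Irf9 binds DNA, had a difference of -0.17 ± 0.10 that did not pass the test (adjusted p = 0.257).

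Oas1a, which makes the messenger that activates RNase L, was at 0.19 to 0.87 FPKM in IL-670 and IL-785 and at 1.82 to 10.33 in IL-611 and IL-3438, with IL-611 alone above 8 FPKM. Oasl1, a relative without that catalytic role, differed by -2.40 ± 0.17, Dhx58, a helicase related to the RNA sensors RIG-I and MDA5, by -1.44 ± 0.17, and Rtp4, a membrane-protein chaperone that interferon induces, by -1.35 ± 0.14 on the log2 scale. In Oasl1 the IL-785 mice (0.29 to 0.46 FPKM) were below the IL-670 mice (1.07 to 1.26). Ifi27l2a had 66 fragments in IL-670, 0 in IL-785, 200 in IL-611 and 103 in IL-3438, or 0.745, 0, 2.26 and 1.88 CPM (fragments per M assigned), where 3 fragments over the line, 0.0343 CPM, is the limit that a count of 0 allows.

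A few members went another way. Mx2, an interferon-induced GTPase, stood at 9.83 to 19.46 FPKM in IL-785 and at 1.54 to 2.48 in the other 8 mice, which gave a pair difference of 1.38 ± 0.20 (adjusted p = 0.00094) made by 1 line. Xaf1, a proapoptotic interferon target, was higher by counts (0.51 ± 0.12, adjusted p = 0.0136, and 0.0677 without IL-3438 replicate 1) but lower by FPKM (a log2 difference of -0.69 at a pseudocount of 1), and its isoforms also differed. Gbp2, a GTPase of the guanylate-binding family, gave 0.11 ± 0.37 (adjusted p = 0.885) and turned to -0.42 without IL-670 replicate 1. Leaving out IL-3438 replicate 2 moved Igtp, an immunity-related GTPase, from -1.12 to -0.63 (adjusted p = 0.111), and the call was also lost without IL-611 replicate 3 (adjusted p = 0.0508) or IL-670 replicate 2 (adjusted p = 0.0522).

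Among the 29 lines, ranked from highest to lowest line mean, the median rank of the 32 genes was 24 for IL-670, 26.5 for IL-785, 5.5 for IL-611 and 12.5 for IL-3438. IL-785 stood within ranks 25 to 29 for 22 of the genes, IL-670 for 15, and IL-611 stood within ranks 1 to 5 for 16. The contrast thus set low lines against 1 high line and 1 line nearer the middle. In Isg15 the ranks were 26, 29, 1 and 16 for IL-670, IL-785, IL-611 and IL-3438.

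**Figure D2:**
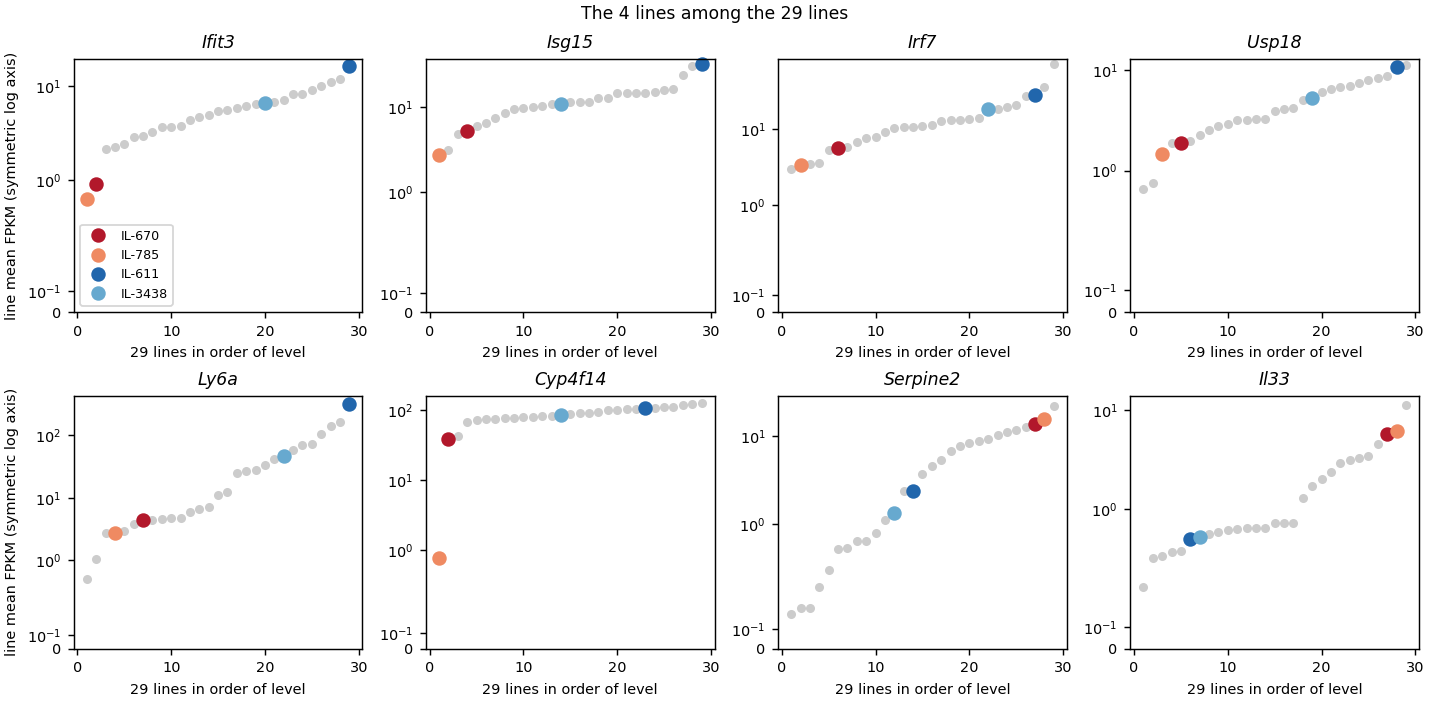
Line mean FPKM (vertical axis, symmetric log scale) of 8 genes in the 29 lines in order of level (horizontal axis), with IL-670, IL-785, IL-611 and IL-3438 coloured and the other lines grey. IL-611 is the highest line for Ifit3, Isg15 and Ly6a and IL-785 the lowest for Ifit3, Isg15 and Cyp4f14, whereas IL-670 and IL-785 are near the top for Il33 and Serpine2.

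Of 13 marker genes of Kupffer cells, the resident macrophages of the liver, 4 fell and all 13 had negative log2 differences, with a median of -0.92. Among all genes tested 10.4% fell. The receptor Marco lay at 0.06 to 0.94 FPKM against 1.92 to 5.54 (log2 difference -2.86 ± 0.63, adjusted p = 0.0103) and Timd4, a receptor for dying cells, at 0.26 to 0.98 against 1.7 to 4.3 (-1.74 ± 0.33, adjusted p = 0.00443). The summed level of the 13 markers ranged from 20.72 to 116.79 FPKM in IL-670 and IL-785 and from 97.06 to 191.66 in IL-611 and IL-3438, with overlap, and DESeq2 called 7 of them. For markers of other cell types the signs of the differences are given first, beside a median of 0.01 over all genes tested. Positive differences were found in 12 of 12 hepatocyte markers (median 0.30), 11 of 12 endothelial (0.30) and 7 of 9 stellate cell and fibroblast markers (0.48). Cholangiocyte and erythroid markers had 5 of 6 negative each (-0.48 and -0.41), and lymphocyte and neutrophil markers 4 of 8 (-0.08). By calls, 5 hepatocyte and 3 stellate cell and fibroblast markers rose, 1 cholangiocyte marker rose and 1 fell, and 1 erythroid marker fell. No endothelial, lymphocyte or neutrophil marker was called. Of all genes tested 9.03% rose and 10.4% fell. Fewer cells of a type and less RNA per cell cannot be told apart in whole liver, and the part of Kupffer cells in the interferon result was not tested. Of 19 genes of MHC class I and antigen presentation 8 fell and 2 rose, beside 10.4% and 9.03% of all genes tested. Without IL-3438 replicate 2, 5 fell. H2-K1, a classical class I molecule, was at 230.62 to 358.46 FPKM in IL-670, 62.48 to 98.34 in IL-785, 528.35 to 631.86 in IL-611 and 307.15 and 322.47 in IL-3438, a difference of -1.40 ± 0.16 (adjusted p = 0.000241) with overlap between IL-670 and IL-3438. Class I genes are polymorphic and similar to each other, and their reads were placed by estimation against a single reference genome.

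Among other protein-coding genes called in all 4 comparisons, Ly6a (ENSMUSG00000075602), a surface protein of the Ly6 family that interferon also induces, differed by more than 5 log2 units. It stood at 5.81, 2.05 and 5.28 FPKM in IL-670, 3.47, 2.54 and 2.26 in IL-785, and 220.66, 338.13 and 375.98 in IL-611. IL-3438 replicate 1 was at 3.51 FPKM and replicate 2 at 90.63, so that the groups overlapped. The log2 difference of -5.06 ± 0.68 (adjusted p = 0.000616) was -5.54 without the first of these mice and -3.17 without the second. Apol9a, an apolipoprotein L family member, and Ifi27l1, of the Ifi27 family, differed by -4.04 ± 0.33 and -4.44 ± 0.25. Ifi27l1 was at 22.55 to 33.13 FPKM in IL-670, 0.83 to 2.94 in IL-785, and 76.36 to 200.5 in IL-611 and IL-3438, which left IL-785 far below IL-670.

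Cyp4f14 (ENSMUSG00000024292, chr17:33042016-33054023), a fatty acid omega-hydroxylase, was at 35.32, 36.93 and 44.78 FPKM in IL-670, 0.64, 0.67 and 1.03 in IL-785, 115.82, 107.43 and 101.1 in IL-611, and 93.22 and 79.41 in IL-3438. Its log2 difference was -4.05 ± 0.12 (adjusted p = 2.11e-08), and the lines formed 3 levels, with IL-785 the lowest of the 29 lines and IL-670 next to it. Ugt3a2 (ENSMUSG00000049152, chr15:9265305-9300710), a conjugating enzyme that uses sugars other than glucuronic acid, was at 3.3 to 5.97 FPKM in IL-670, 19.46 to 28.78 in IL-785 and 123.4 to 148.13 in IL-611 and IL-3438, a difference of -4.06 ± 0.14 (adjusted p = 7.3e-08). Here IL-670, the lowest of the 29 lines, was below IL-785, the reverse of Cyp4f14. Akr1e1, an aldo-keto reductase, lay at 0.19 to 3.21 FPKM against 12.82 to 21.3, and Cyp4a12b, another omega-hydroxylase, at 5.07 to 14.46 against 62.02 to 82.97 (-2.89 ± 0.15, adjusted p = 8.41e-07). Fam55b, at 0 to 0.03 FPKM in IL-670, 1.81 to 2.86 in IL-785 and 4.57 to 10.61 in IL-611 and IL-3438, Cfhr3, a complement factor H relative (0.1 to 0.87 against 4.81 to 6.03 FPKM), and Dpy19l3, a protein mannosyltransferase (0.54 to 1.29 against 6.1 to 9.01 FPKM), were also among the 10 largest decreases. Neither pair overlapped the other in any of the genes of this paragraph.

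Of the genes higher in IL-670 and IL-785, Il33 (ENSMUSG00000024810, chr19:29999604-30035194), a cytokine released from damaged cells, stood at 5.02, 5.67 and 6.73 FPKM in IL-670, 6.18, 5.25 and 7.01 in IL-785, 0.61, 0.53 and 0.36 in IL-611, and 0.38 and 0.66 in IL-3438. The log2 difference was 3.63 ± 0.18 (adjusted p = 7.9e-07), and neither the 2 high lines nor the 2 low lines were called apart (adjusted p = 0.828 and 0.999). Serpine2 (ENSMUSG00000026249), an inhibitor of thrombin and other serine proteases, was at 12.74 to 17.27 FPKM against 1.07 to 3.15, a difference of 3.11 ± 0.16 (adjusted p = 7.9e-07). IL-785 and IL-670 ranked 2 and 3 of the 29 lines for both genes. Ctse (ENSMUSG00000004552), the aspartic protease cathepsin E, was at 10.39 to 11.57 FPKM in IL-670, 5.87 to 8.38 in IL-785, 0.08 to 0.25 in IL-611 and 2.89 and 3.67 in IL-3438, with a difference of 3.81 ± 0.20 (adjusted p = 1.08e-06). Rgs16, a brake on G protein signalling, varied within the lines, from 7.59 to 30.84 FPKM in IL-670 and from 30.47 to 42.06 in IL-785, against 0.84 to 1.32 in IL-611 and 5.58 and 5.83 in IL-3438 (3.36 ± 0.35, adjusted p = 0.000125).

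The detoxifying enzymes Nqo1 and Aldh1b1 were among the 10 largest increases. Nqo1 (chr8:109912125-109927106), the quinone reductase, was at 7.57, 9.13 and 7.78 FPKM in IL-670, 5.31, 8.13 and 10.08 in IL-785, 2.1, 2.2 and 1.91 in IL-611, and 2.06 and 1.37 in IL-3438, a difference of 2.16 ± 0.17 (adjusted p = 1.85e-05). Aldh1b1, a mitochondrial aldehyde dehydrogenase, was at 69.72 to 101.3 FPKM in IL-670 and 34 to 42.4 in IL-785 against 11.53 to 22.06 (1.96 ± 0.17, adjusted p = 3.38e-05), with IL-670 the highest of the 29 lines. The Nrf2 target list, to which Nqo1 belongs, had 3 members higher and 3 lower of 25, near the 9.03% and 10.4% of all genes tested. Cebpb, a transcription factor of the liver's response to fasting and inflammation, lay at 19.82 to 58.83 against 8.75 to 16.86 FPKM (1.45 ± 0.28, adjusted p = 0.00552). Fabp4, a fatty acid carrier, differed by 1.85 ± 0.35, Mthfs, an enzyme of folate metabolism, by 1.55 ± 0.11, and Wdfy1, an endosomal adaptor, by 1.54 ± 0.11, each without overlap.

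**Figure D3:**
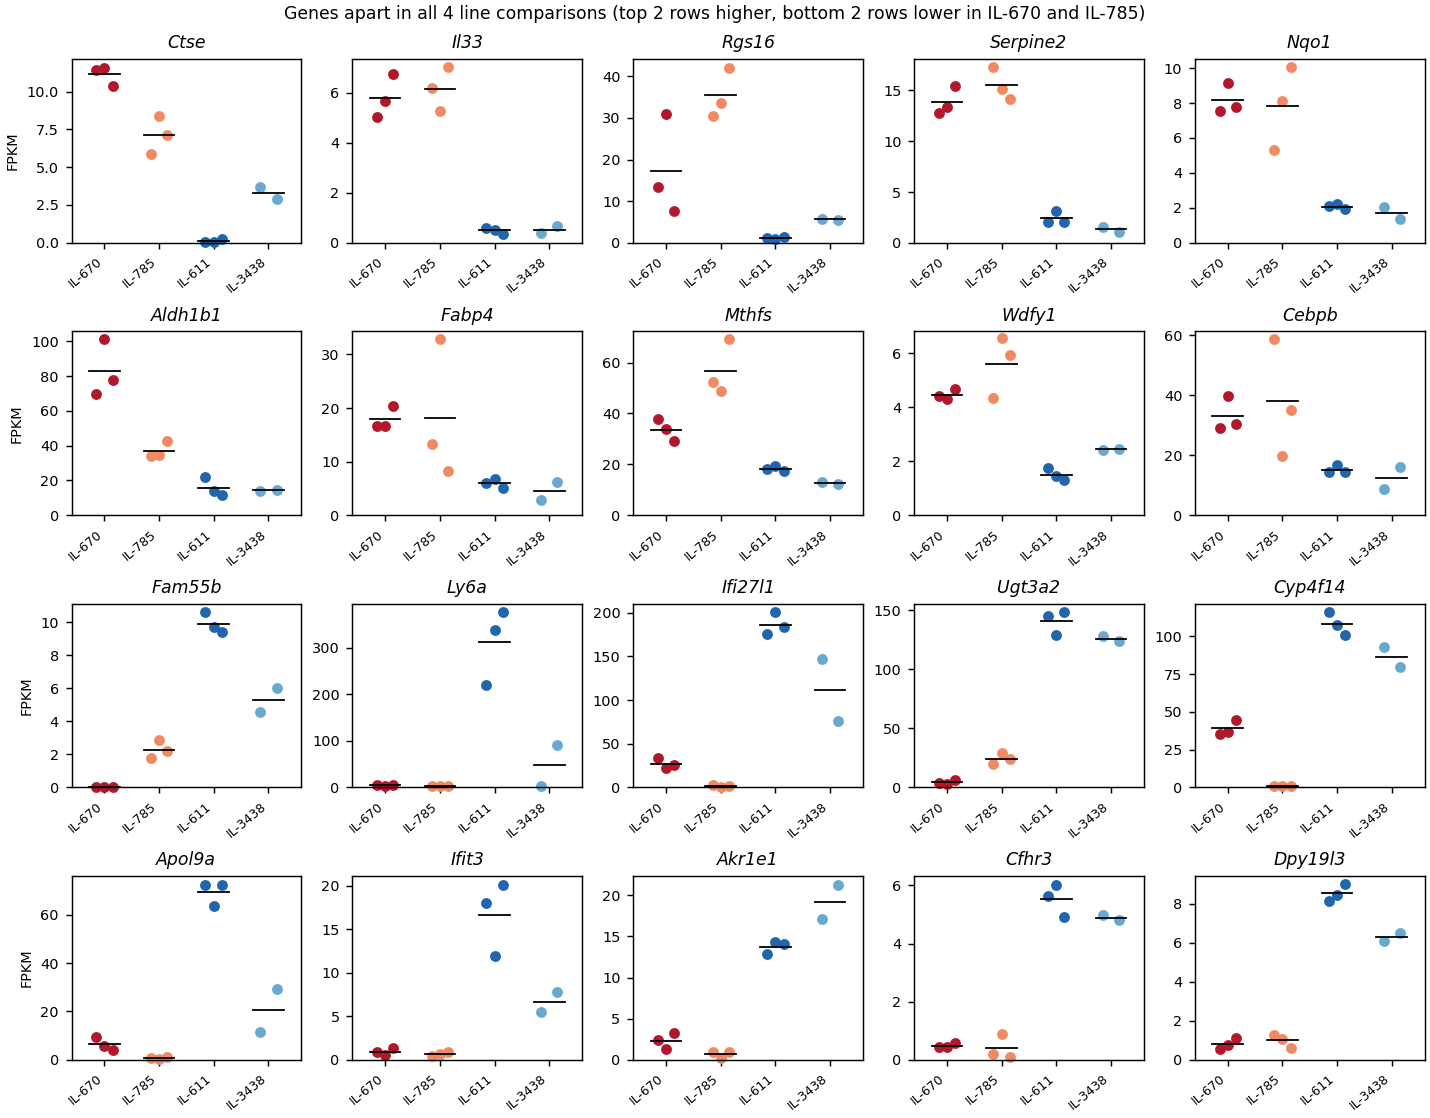
FPKM (vertical axis, starting at 0) of the protein-coding genes with the largest differences among those called in all 4 comparisons, with 1 point a mouse, bars at the line means and the 4 lines on the horizontal axis. Mice of IL-670 and IL-785 are above those of IL-611 and IL-3438 in the top 2 rows and below them in the bottom 2 rows, except in Ly6a, where IL-3438 replicate 1 (3.51 FPKM) lies among the low mice.

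Of the carboxylesterases, the enzymes that activate irinotecan and other esters, 14 were tested besides the left-out Ces2h and Ces3a. Of these 2 rose and 6 fell (4 fell without IL-3438 replicate 1), with a median log2 difference of -0.29. Among all genes tested 9.03% rose and 10.4% fell. Ces1b was the member called in all 4 comparisons, at 196.31, 202.49 and 180.58 FPKM in IL-670, 178.81, 211.28 and 219.04 in IL-785, 141.47, 165.61 and 137.98 in IL-611, and 154.06 and 155.71 in IL-3438, a modest difference of 0.45 ± 0.08 (adjusted p = 0.00402). Ces2b came from 1 line, with 39.74 to 47.38 FPKM in IL-670 and 0.83 to 1.85 elsewhere (2.46 ± 0.16, adjusted p = 6.36e-06). Ces2c was at 4.04 to 4.88 FPKM in IL-670, 7.13 to 26.43 in IL-785, 65.42 to 70.89 in IL-611 and 21.38 and 22.9 in IL-3438 (-1.98 ± 0.27, adjusted p = 0.00071), which overlapped between IL-785 and IL-3438. Ces2g (-0.51 ± 0.07) was lower without overlap, Ces2e (-0.61 ± 0.11) and Ces1e (-1.27 ± 0.18) were lower, and Ces2a (-0.40 ± 0.10) was not called without IL-3438 replicate 1 (adjusted p = 0.0762). Ces4a (-2.96 ± 0.94, adjusted p = 0.0452) lost its call without any of 9 of the mice, and it was low in IL-670 alone, with line means of 0.010 FPKM in IL-670, 3.91 in IL-785, 1.39 in IL-611 and 2.18 in IL-3438. With the pair as the only factor its difference was 0.29. Ces1c, Ces1d, Ces1f, Ces1g, Ces3b and Bche, with log2 differences between -0.30 and 0.38, did not pass the test.

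The target of SN-38, Top1, was at 10.2, 12.24 and 11.96 FPKM in IL-670, 13.19, 11.7 and 11.42 in IL-785, 8.25, 8.53 and 9.09 in IL-611, and 10.27 and 10.02 in IL-3438. The difference of 0.40 ± 0.07 (adjusted p = 0.00308) left 1 IL-670 mouse between the IL-3438 mice. Of the export pumps, Abcb1b, a P-glycoprotein that expels many drugs, was at 0.19, 0.16 and 0.28 FPKM in IL-670, 0.83, 0.85 and 0.92 in IL-785, 4.12, 4.13 and 3.11 in IL-611, and 1.57 and 1.31 in IL-3438, with a difference of -2.40 ± 0.13 (adjusted p = 1.69e-06). All 4 lines stood apart in this lowly expressed gene. Abcb1a, its relative, did not reach 2 FPKM and was not tested. Abcc2, the bile pump for conjugates, had a difference of 0.21 ± 0.11 (adjusted p = 0.236), and Abcg2 one of -0.29 ± 0.08 (adjusted p = 0.0355) that was lost without any of 8 of the mice. Slco1b2, the uptake carrier for many drugs, had 0.14 ± 0.10 (adjusted p = 0.378), whereas Slco2a1, a prostaglandin carrier, fell by 0.91 ± 0.10 on the log2 scale in all 4 comparisons (adjusted p = 0.000211). Cyp3a13, of the oxidising Cyp3a family, was at 7.44 to 8.07 FPKM in IL-611 and 30.33 to 52.16 in the other lines (1.12 ± 0.12, adjusted p = 0.000122), and was the 1 of 8 Cyp3a genes called. The xenobiotic receptors Nr1i2 (-0.19 ± 0.17, adjusted p = 0.466) and Nr1i3 (0.56 ± 0.20, adjusted p = 0.0750) did not pass the test. Of 20 target genes of these receptors 3 rose and 1 fell, near the 19.5% called in either direction of all genes tested.

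Of 26 glutathione transferases 8 rose and 4 fell, and 5 rose without either IL-3438 mouse. Gstp2 was at 39.77 to 134.03 FPKM in IL-785 and 2.08 to 5.87 elsewhere. Gstm6 was at 6.23 and 8.03 FPKM in IL-3438 and 39.72 to 131.99 elsewhere, and Gstt1 at 1.55 to 1.72 FPKM in IL-670 and 8.36 to 181.7 elsewhere. The Gstt1 difference of -2.50 ± 0.44 was -1.33 without IL-3438 replicate 1. Of 38 CYP1 and CYP2 enzymes 2 rose and 7 fell, and of 38 flavin monooxygenases and aldo-keto, alcohol and aldehyde enzymes 7 rose and 5 fell. The counts of these lists and of the glutathione transferases stand beside 9.03% higher and 10.4% lower of all genes tested. Slc22a30, an organic anion transporter family gene, was at 3.94 to 7.05 FPKM in IL-785 and 71.67 to 148.2 elsewhere.

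Of 33 tested target genes of PPARalpha, the receptor that raises fat oxidation in fasting, 16 fell in IL-670 and IL-785, 4 of them in all 4 comparisons. Among all genes tested 10.4% fell, and 1.2% fell in all 4 comparisons. Of the 33, 30 had negative differences, and the median was -0.48 on the log2 scale. Crat, which moves acetyl groups to carnitine, was at 4.63 to 7.66 FPKM against 8.56 to 24.99 (-1.30 ± 0.10, adjusted p = 1.32e-05). Aldh3a2, the fatty aldehyde dehydrogenase, was at 22.1, 26.73 and 23.09 FPKM in IL-670, 20.62, 38.93 and 30.53 in IL-785, 63.09, 53.99 and 78.2 in IL-611, and 70.9 and 62.93 in IL-3438 (-1.24 ± 0.14, adjusted p = 0.000244). The groups did not overlap in either gene. Acot2, a mitochondrial acyl-CoA thioesterase, differed by -2.40 ± 0.38 (adjusted p = 0.00159) at levels of 0.04 to 0.4 against 0.88 to 2.06 FPKM. The list did not move as 1 block. Cpt1a, which admits fatty acids to mitochondria, had a difference of 0.06 ± 0.08 (adjusted p = 0.653) and was named after its values were seen. The median ranks of the 33 genes among the 29 lines were 25 for IL-670, 18 for IL-785, 15 for IL-611 and 7 for IL-3438.

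**Figure D4:**
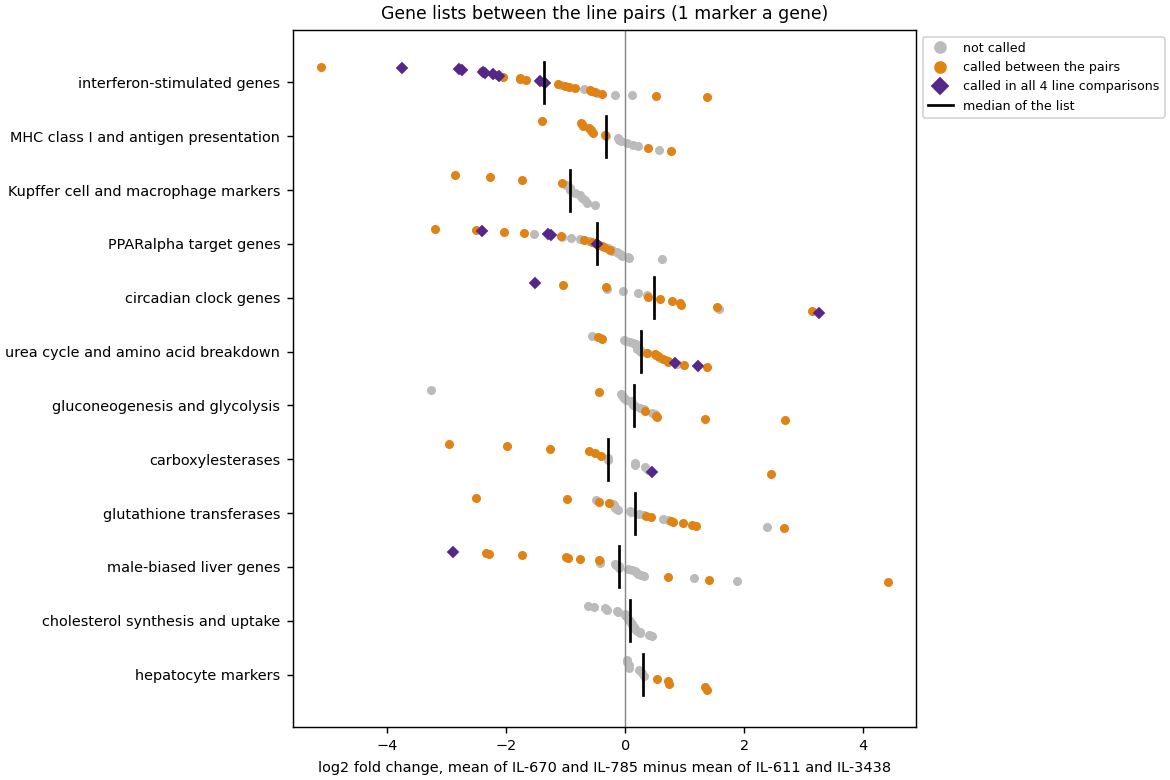
Log2 difference between IL-670 with IL-785 and IL-611 with IL-3438 (horizontal axis) for every tested gene of 12 lists (vertical axis), with 1 marker a gene, coloured by its calls, and a black line at each list's median. Interferon-stimulated genes have the lowest median (-1.36), followed by Kupffer cell markers (-0.92) and PPARalpha targets (-0.48), and circadian clock genes extend to both sides.

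Circadian clock genes differed in both directions. Of 16 tested 8 rose and 3 fell, beside 9.03% and 10.4% of all genes tested. Per1 (ENSMUSG00000020893), a repressor of the clock and a gene that glucocorticoids induce, was at 2.25, 4.7 and 2.46 FPKM in IL-670, 5.14, 1.08 and 5.94 in IL-785, 0.53, 1.11 and 0.31 in IL-611, and 0.32 and 0.18 in IL-3438. The difference of 3.25 ± 0.53 (adjusted p = 0.00216) held in all 4 comparisons, with IL-785 replicate 2 just below IL-611 replicate 2. Arntl (ENSMUSG00000055116), the activator on the opposite phase, was at 1.88, 1.25 and 2.03 FPKM in IL-670, 1.22, 1.36 and 1.49 in IL-785, 5.43, 2.61 and 5.7 in IL-611, and 6.36 and 2.86 in IL-3438, a difference of -1.52 ± 0.26 (adjusted p = 0.00249) without overlap. The E-box CACGTG, through which Arntl acts, was present in the 250 bases before the start of 4 of the 16 clock genes (25%) and of 912 of 11172 promoters (8.16%), searched on both strands. The Per1 window is printed because Per1 is the clock gene called higher in all 4 comparisons, with the match in capitals.
Per1, chr11:68912270-68912305, plus strand: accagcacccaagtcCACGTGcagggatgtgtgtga
The time of day of each dissection was not given in the sources used here, and the part of dissection time in these differences was not tested.

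Among all genes tested 9.03% rose in IL-670 and IL-785 and 10.4% fell. Of 33 genes of the urea cycle and of amino acid breakdown 11 rose and 2 fell, with a median of 0.27, and of 20 genes of gluconeogenesis and glycolysis 5 rose and 1 fell. These counts depended on single mice, since the 11 became 5 without IL-3438 replicate 2, 6 without IL-3438 replicate 1 and 16 without IL-785 replicate 2, and the 5 became 2 and 3 without IL-3438 replicate 1 or 2. Gpt2, the mitochondrial alanine transaminase, was at 92.39, 160.25 and 124.91 FPKM in IL-670, 94.32, 107.54 and 117.69 in IL-785, 48.32, 34.65 and 39.99 in IL-611, and 71.54 and 60.49 in IL-3438 (1.23 ± 0.14, adjusted p = 0.000241). Gls2, the liver glutaminase, was at 114.76 to 197.35 against 74.2 to 111.67 FPKM (0.84 ± 0.13, adjusted p = 0.00146). Both were called in all 4 comparisons without overlap. Tat, tyrosine transaminase, and Pck1, the gluconeogenic carboxykinase, varied within IL-785, where replicate 2 had 293.52 and 296.16 FPKM and the other mice 761.31 or more. Their differences of 1.37 ± 0.30 and 1.34 ± 0.34 had adjusted p = 0.0104 and 0.0199. Without IL-3438 replicate 2 these were 0.0533 and 0.0829, and Pck1 was at 0.0592 without IL-3438 replicate 1. The median rank of the 33 amino acid genes was 16 for IL-670, 8 for IL-785, 13 for IL-611 and 27 for IL-3438.

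Some of the most divergent values fall on genes with near-identical copies. The ribosomal protein gene Rps3a and the predicted gene Gm10119 share 791 of 795 aligned bases (99.5%). Gm10119 took 49.1% to 81.3% of their summed fragments in IL-670 and IL-785 and 0% to 0.0412% in IL-611 and IL-3438, while the sum was 153.6 to 245.8 and 240.7 to 325.8 CPM. The split between these copies is therefore uncertain. Both genes were named after their values were seen. Ftl1, the ferritin light chain, was at 4.23 to 4.82 FPKM in IL-785 and 2274 to 3231 elsewhere, and it too has close copies, whose identity to it was not measured here.

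The share of members called in all 4 comparisons differed between chromosomes. It was 3.69% on chromosome 17 (21 of 569 members), 3.67% on chromosome 19 (15 of 409), 3.29% on chromosome 15 (14 of 426) and 0.178% on chromosome 6 (1 of 562), beside 1.98% of all genes tested. The densest 10 Mb windows with at least 4 such genes were the first of chromosome 15, with 4 of 26 members (15.4%), and that of chromosome 19 from 30 to 40 Mb, with 7 of 47 (14.9%), 4 higher and 3 lower: Slc16a12, Mbl2, Asah2, Minpp1, Ifit1, Cstf2t and Ifit3. The window before the latter, from 20 to 30 Mb, held 5 of 34, among them Il33. Neighbouring genes are inherited together in inbred lines and are not independent. Names in these windows were chosen after their values were seen.

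Isoform ratios, the percentage of a gene's transcripts that the authors' quantification assigned to each isoform, were tested with limma for 21062 isoforms of 6773 genes. Between the pairs 1.45% of isoforms were called, 144 higher and 162 lower in IL-670 and IL-785, in 198 genes. In all 4 comparisons 0.123% were called, 23 of them in 15 member genes. Within the pairs 2.18% differed between IL-670 and IL-785 and 0.593% between IL-611 and IL-3438. The 0.123% of isoforms and the 1.98% of genes called in all 4 comparisons come from different tests and filters, so that the 2 shares are not a like comparison.

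The isoforms of Tor1aip1, which encodes a protein of the inner nuclear membrane, were exchanged completely. ENSMUST00000097528 took 63.12%, 66.02% and 48.34% of the gene in IL-670 and 65.34%, 60.01% and 62.63% in IL-785, and was listed at 0% in the 5 other mice, a difference of 60.9 ± 3.32 percentage points (limma, adjusted p = 3.89e-05). ENSMUST00000097527 was at 0% to 0.3% in IL-670 and IL-785 and at 50.14% to 61.37% in IL-611 and IL-3438 (-56.5 ± 2.37 points, adjusted p = 1.13e-05). The coding stretch present in the first of these isoforms and absent from the second is printed with its flanks. Other differences between the 2 isoforms were not examined. The stretch lies at chr1:157867098-157867153 (mm9, minus strand) and is in capitals, and the flanks reach from 157867068 to 157867183.
Tor1aip1 exon: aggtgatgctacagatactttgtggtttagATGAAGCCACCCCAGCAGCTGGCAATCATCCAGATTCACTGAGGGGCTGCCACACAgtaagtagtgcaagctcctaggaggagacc
The annotation splits this stretch of 56 bases into coding pieces of 47 and 7 bases with a gap of 2 bases between them. The total expression of Tor1aip1 differed by -0.31 ± 0.08 on the log2 scale (adjusted p = 0.0223).

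Ifih1, the RNA sensor MDA5 that starts interferon production, had a smaller change of the same kind. It lies outside the 10 genes with the largest isoform differences and was chosen after its values were seen. ENSMUST00000028259 took 25%, 25.32% and 23.57% in IL-670, 25.86%, 23.82% and 28.13% in IL-785, 41.03%, 39.63% and 43.72% in IL-611, and 49.77% and 48.46% in IL-3438, a difference of -20.0 ± 1.94 points (adjusted p = 0.00112). ENSMUST00000112459 rose by 20.2 ± 1.75 points (adjusted p = 0.00057). They differ by a coding exon of 147 bases at chr2:62473113-62473259 (mm9, minus strand), in capitals here. It is printed because only the first of the 2 isoforms carries it, and other differences between them were not examined.
Ifih1 exon: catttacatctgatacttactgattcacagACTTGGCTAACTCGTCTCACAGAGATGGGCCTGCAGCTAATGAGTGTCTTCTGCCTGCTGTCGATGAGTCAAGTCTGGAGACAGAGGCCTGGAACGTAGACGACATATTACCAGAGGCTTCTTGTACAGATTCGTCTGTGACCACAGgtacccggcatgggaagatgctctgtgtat
The isoform that carries this exon had a smaller share in IL-670 and IL-785 than in IL-611 and IL-3438. It was also the lesser of the 2 in IL-611 (mean of 41.5% against 56.6%), and the 2 were equal in IL-3438 (49.1% each). The gene's total expression did not pass the test (-0.20 ± 0.07, adjusted p = 0.0830).

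Metabolic genes also exchanged isoforms. In Slc25a42, the mitochondrial coenzyme A carrier, ENSMUST00000063788 took 70.35% to 84.47% of the gene in IL-670 and IL-785 and 9.97% to 29.26% in IL-611 and IL-3438 (58.2 ± 3.40 points, adjusted p = 6.15e-05). In Ugt3a2, ENSMUST00000072403 took 30.15% to 51.12% against 98.19% to 98.91% (-57.2 ± 3.64 points, adjusted p = 0.000101), in the lines where the gene's total level was also low. In Acox2, a peroxisomal oxidase of bile acid precursors, ENSMUST00000022271 took 28.38% to 47.26% against 83.33% to 87.18% (-44.2 ± 2.90 points, adjusted p = 0.000111), and the gene's total expression differed by -0.90 ± 0.07 in all 4 comparisons (adjusted p = 1.06e-05). Ratios of these 3 genes did not overlap between the pairs. In Xaf1, ENSMUST00000146233 took 58.75% to 82.8% against 11.92% to 17.84%.

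Not every exchange was between coding isoforms. In Phb, a scaffold protein of mitochondria, ENSMUST00000123071, annotated as a processed transcript, took 44.8% to 64.36% in IL-670 and IL-785 and 4.4% to 19.03% in IL-611 and IL-3438 (43.1 ± 4.50 points, adjusted p = 0.00179). In C4a, a relative of complement C4, ENSMUST00000160679, annotated as antisense, took 0% to 2.09% against 21.26% to 56.5%. C6, a component of the membrane attack complex, had 45.22% to 71.5% against 85.91% to 92.72% in ENSMUST00000162585. The other members called in all 4 comparisons were isoforms of 2310045N01Rik, Mthfsd, Rg9mtd3, Oma1, Mul1 and Ndufv3, with differences of 7.7 to 34.1 points in either direction. Estimated ratios rest on reads that isoforms share, and reads of a CC allele may be placed differently from those of the reference.

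**Figure D5:**
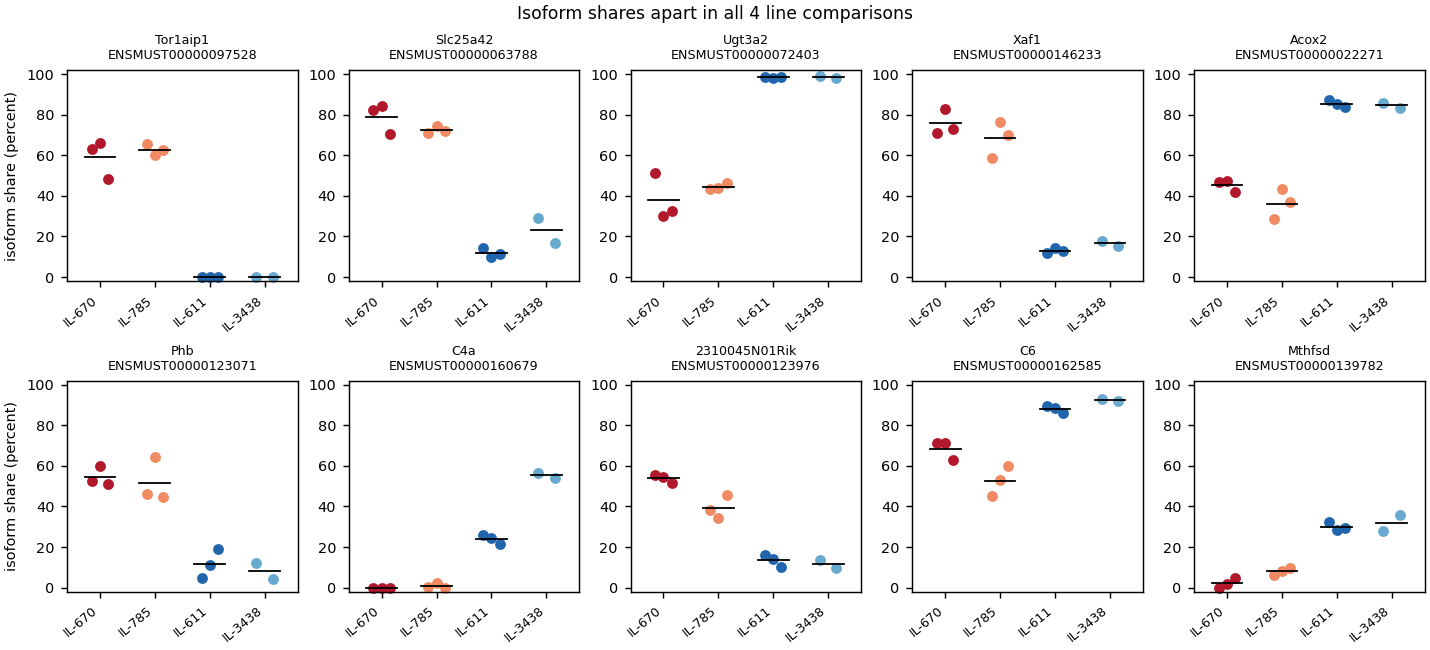
Isoform ratio (percent of the gene, vertical axis) of the isoforms with the largest differences, 1 a gene, among those called in all 4 comparisons, with 1 point a mouse, bars at the line means and the 4 lines on the horizontal axis. Tor1aip1 ENSMUST00000097528 is at 48.34% to 66.02% in IL-670 and IL-785 and at 0% in IL-611 and IL-3438, and no panel shows overlap between the pairs.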

How the data were processed

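Poly(A) RNA of whole liver was sequenced from paired ends. Per the labels, the authors quantified genes and isoforms with RSEM 1.2.18 on mm9 and deposited expected counts, FPKM values and, for isoforms, a percent of the gene. Gene names and positions came from the GENCODE annotation of that build. Expected counts, as deposited and rounded to whole numbers, were fitted in edgeR 4.0.16 (R 4.3.3) with TMM scaling and line as a factor over the 11 mice. The contrast was the mean of IL-670 and IL-785 minus that of IL-611 and IL-3438, with Benjamini-Hochberg adjustment at 0.05. Isoform percents were fitted with limma 3.58.1 where the isoform reached 5% in a mouse and its gene had 2 isoforms or more and 50 counts in each mouse. Scripts were tested on simulated data. Replicate numbers follow sample order. Depth was 26.4 M to 32.7 M fragments, and limits from a count of 0 cover counting error only, whereas standard errors come from the fits over mice. Named genes were the 10 largest differences each way among protein-coding genes called in all 4 comparisons with a mean of 5 FPKM in the higher pair, up to 3 genes a list, all carboxylesterases and all interferon-stimulated genes, and irinotecan transporters, receptors and Top1 whatever their values. Further names are said to have been chosen after their values were seen, as are, here, Alb, Tor1aip1 and Acox2 levels. Named isoforms were the 10 largest differences, 1 a gene. Beyond these, isoforms of Ifih1, Rg9mtd3, Oma1, Mul1 and Ndufv3 were named after their values were seen. Members and gene lists were chosen with earlier results of these data known. Alternatives were DESeq2 1.42.0, other scalings and filters, FPKM with limma, other units of replication, all 55 mice and each mouse left out.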

Additional observations from a re-analysis of the deposited data

Results flagged for a closer look

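In 90 groups of mice, the IL-670 with IL-785 and the IL-611 with IL-3438 mice of 45 named genes, the distance of the highest or lowest mouse from the rest was compared with Dixon's critical value. It was exceeded in 2 groups. The critical value is set for about 1 in 20 groups drawn from 1 population. Each group here pools mice of 2 lines, so that this rate need not hold. Aldh1b1 in IL-611 replicate 1 was at 22.06 FPKM, and the next highest of the IL-611 and IL-3438 mice was at 14.52 (gap of 0.716 of the range). Gls2 in the same mouse was at 111.67 FPKM, with the next highest at 84.31 (gap of 0.730 of the range).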

How the results depend on the processing

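Counts of called genes between the pairs were 2188 with DESeq2's size factors, 2303 without the FPKM filter, 2525 with filterByExpr, 2054 with the filter on the 11 mice alone, 1994 with all 55 mice in the fit and 2578 with DESeq2, against 2181. With the line as the unit (2 against 2) 0 passed, where edgeR gave 3634 at unadjusted p under 0.05 and the line means 714, and with the pair as the only factor 617 passed (279 higher). FPKM with limma gave 774 higher and 1527 lower at a pseudocount of 1 and 784 and 1508 at 0.1, so that the higher share was 33.6% and 34.2% against 46.4%. In all 4 comparisons it gave 56 higher and 157 lower at a pseudocount of 1, or 26.3% higher against 39.6%. Isoforms called between the pairs were 140 with 1 isoform a gene, 0 with the line as the unit (984 at unadjusted p under 0.05) and 195 with edgeR's diffSpliceDGE, against 306, and 8 with 1 isoform a gene in all 4 comparisons, against 26. Without 1 mouse, genes called were 1462 to 2405 between the pairs, 139 to 250 in all 4 comparisons, 1894 to 2951 between IL-670 and IL-785 and 591 to 1206 between IL-611 and IL-3438 (591 and 594 without either IL-3438 mouse, 613 and 619 without IL-611 replicate 1 or 3, against 970). Isoforms were 220 to 313 between the pairs and 17 to 25 in all 4 comparisons (17 without IL-670 replicate 2). Lower interferon-stimulated genes were 19 to 26 and lower PPARalpha targets 14 to 19 in these fits, and 15 (of 25) and 10 (of 16) with the pair as the only factor, where higher urea cycle and amino acid genes were 3 (of 11), higher gluconeogenesis genes 1 (of 5), lower carboxylesterases 1 (of 6), lower Kupffer cell markers 2 (of 4), and higher glutathione transferases and lower MHC class I genes 0 (of 8 each). Direction changed in Gstm3 (-1.36), Gstm6 (-0.11) and Ces4a (0.29) with the pair as the only factor, in Xaf1 on FPKM (-0.69 and -0.83), and in Gbp2 with the line as the unit (-0.065), on FPKM (-0.023 and -0.11) and without IL-670 replicate 1 (-0.42). All 126 called named genes kept their calls with DESeq2, with its size factors and with filterByExpr, 17 lost them with all 55 mice, 71 lost them and 3 changed direction with the pair as the only factor, and all 126 lost them with the line as the unit. The cause was not tested. No paired analysis was possible because the labels give no replicate numbers that tie mice of different lines.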
